A study of Rattus norvegicus with 6 samples.

Results

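The miR-29 family was followed through small RNA sequencing of rat brain as 5 rows of the deposited count table, rno-miR-29a-3p, rno-miR-29b-3p, rno-miR-29c-3p, rno-miR-29a-5p and rno-miR-29c-5p, out of 775 listed miRNAs. These rows were chosen by name. The 6 libraries came from male Sprague–Dawley rats, bought at 7 weeks of age, in which both common carotid arteries had been ligated (2-vessel occlusion, 2VO), so that every library compared here carries the lesion. In the 2VO group (n = 3 libraries) the rats received the vehicle, 0.5% CMC-Na at 5 mL/kg, and in the tilianin-treated 2VO group (n = 3 libraries) they received 40 mg/kg tilianin, a flavonoid glycoside, by gastric tube each day for 4 weeks. The comparison asks which miRNAs differ after tilianin treatment of 2VO rats. The labels give the tissue as brain, whereas the study's own description of the miRNA comparison speaks of cortex, so that the region sampled is uncertain for the levels and marker lists given here. The labels do not say whether a library is 1 rat, and no sham library was analysed here. P-values therefore measure the spread between these libraries. Total counts were between 7175872 and 13198776 per library.

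A miRNA gene is transcribed into a hairpin from which both arms can be cut. The arm that is loaded into the silencing complex is the guide strand, and its bases 2 to 8, the seed, pair with target mRNAs. The miR-29 guide strands are the 3p arms. They are known to repress collagens and other matrix genes, the de novo DNA methyltransferases, the amyloid-processing protease BACE1 and, in neurons, pro-apoptotic BH3-only genes, and they accumulate as the brain matures. In rodents the family comes from 2 gene pairs, Mir29a with Mir29b1 and Mir29b2 with Mir29c.

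The mature sequences of the 5 members are shown because a shared seed defines the family and because few bases separate the guide strands. They were taken by name from RefSeq (assembly GRCr8), which held all 5, and the coordinates are those of that assembly, since no build is named for the counts. Each is written 5′ to 3′ with the seed in capitals.
miR-29a-3p (Mir29a, chr4:60617968-60617989, minus strand): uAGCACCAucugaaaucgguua
miR-29b-3p (Mir29b1, chr4:60618342-60618364, minus strand, and Mir29b2, chr13:109098882-109098904, plus strand): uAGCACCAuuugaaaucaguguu
miR-29c-3p (Mir29c, chr13:109099412-109099433, plus strand): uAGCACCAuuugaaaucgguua
miR-29a-5p (Mir29a, chr4:60618006-60618027, minus strand): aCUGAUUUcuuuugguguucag
miR-29c-5p (Mir29c, chr13:109099374-109099395, plus strand): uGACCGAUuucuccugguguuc

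The 3 guide strands had the seed AGCACCA, which no other mature rat miRNA name in the RefSeq table carried. Counted from 1 at the 5′ end and without gaps, miR-29a-3p and miR-29c-3p differed by 1 base of 22 (C10U, with the base of miR-29a-3p first). miR-29a-3p and miR-29b-3p differed by 4 of the 22 bases compared (C10U, G18A, U21G and A22U), and miR-29b-3p was 1 base longer, at 23. Reads of such near-copies could be divided between the rows by the authors' counting. The passenger arms miR-29a-5p and miR-29c-5p had different seeds, CUGAUUU and GACCGAU. In GRCr8, 291 bases lie between Mir29a and Mir29b1, and 447 bases lie between Mir29b2 and Mir29c. The hairpins of Mir29b2 and Mir29c overlap the long non-coding RNA gene LOC102550527.

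The hairpins of Mir29a and Mir29c are shown because their 5p arms were counted very differently. Capitals mark the mature arms, with the 5p arm first.
Mir29a (chr4:60617955-60618042, minus strand): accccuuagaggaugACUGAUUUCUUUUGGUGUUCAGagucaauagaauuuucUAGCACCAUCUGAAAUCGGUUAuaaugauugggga
Mir29c (chr13:109099359-109099446, plus strand): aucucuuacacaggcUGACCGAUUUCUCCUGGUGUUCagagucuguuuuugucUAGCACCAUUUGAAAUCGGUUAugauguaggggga

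Each guide strand also has a miRNA annotated on the opposite DNA strand of its locus, with a row of its own in the count table. These are miR-3556a, miR-3587 and miR-3556b. They are shown because every base of them, in capitals, is the exact reverse complement of the guide strand.
miR-3556a (opposite miR-29a-3p, chr4:60617972-60617989, plus strand): CGAUUUCAGAUGGUGCUA
miR-3587 (opposite miR-29b-3p of Mir29b1, chr4:60618342-60618362, plus strand): AACACUGAUUUCAAAUGGUGC
miR-3556b (opposite miR-29c-3p, chr13:109099412-109099431, minus strand): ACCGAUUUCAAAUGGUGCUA

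These rows were not among the chosen members, but the level of miR-29 in the table turned on them. The row of miR-29a-3p held 310, 473 and 334 counts in 2VO replicates 1, 2 and 3 and 347, 103 and 290 counts in tilianin-treated replicates 1, 2 and 3. The row of miR-3556a held 26757, 39937 and 29031 counts in the 2VO libraries and 32921, 12882 and 27726 counts in the treated libraries. Thus the opposite-strand row was 84.4 to 125 times as high as the row of miR-29a-3p in the same library. Of the counts in both rows it held 98.8% in 2VO replicate 2, the lowest share (95% exact binomial interval 98.7 to 98.9%), and 99.2% in treated replicate 2, the highest share (99.0 to 99.4%). Such intervals cover counting error only.

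For miR-29b-3p the pair of rows was close to even. miR-29b-3p had 7955, 12796 and 8238 counts in the 2VO libraries and 10664, 3580 and 7641 counts in the treated libraries, and miR-3587 had 9414, 14723 and 9377 against 12297, 4076 and 8927 counts. The ratio of miR-3587 to miR-29b-3p stayed between 1.14 and 1.18 in the 6 libraries, while the counts of miR-29b-3p ranged from 3580 to 12796. The share of miR-3587 was 53.2% at its lowest, in 2VO replicate 3 (95% exact binomial interval 52.5 to 54.0%), and 54.2% at its highest, in 2VO replicate 1 (53.5 to 54.9%).

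For miR-29c-3p most counts were in the row of the guide strand itself. miR-29c-3p had 2388, 3568 and 2289 counts in the 2VO libraries and 2413, 1426 and 2433 counts in the treated libraries, whereas miR-3556b had 292, 445 and 362 against 418, 133 and 325 counts. The share of miR-3556b was between 8.53% (95% exact binomial interval 7.19 to 10.0%), in treated replicate 2, and 14.8% (13.5 to 16.1%), in treated replicate 1. The sources used here do not say whether the counting used the strand of the reads. They also do not say whether a read could count in more than 1 row. Some rows outside miR-29, such as let-7a-1-3p and let-7c-2-3p, had the same mean level and fold change, so a read may have counted in both. Whether this held for the rows of miR-29 was not tested. Without the strand setting, reads of a guide strand and of the miRNA named opposite to it cannot be told apart. Of the 775 listed miRNAs, 689 had a mature sequence of the same name in RefSeq, and only these could be compared. Among them, 46 pairs overlapped by at least 15 bases on opposite strands in GRCr8. In 19 of these pairs both rows had at least 10 counts in total. Levels are therefore given below as the rows stand and with the opposite-strand row added to each guide strand. A read held in both rows of a pair would enter the added form repeatedly, so the added levels and shares may be wrong.

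**Figure D1:**
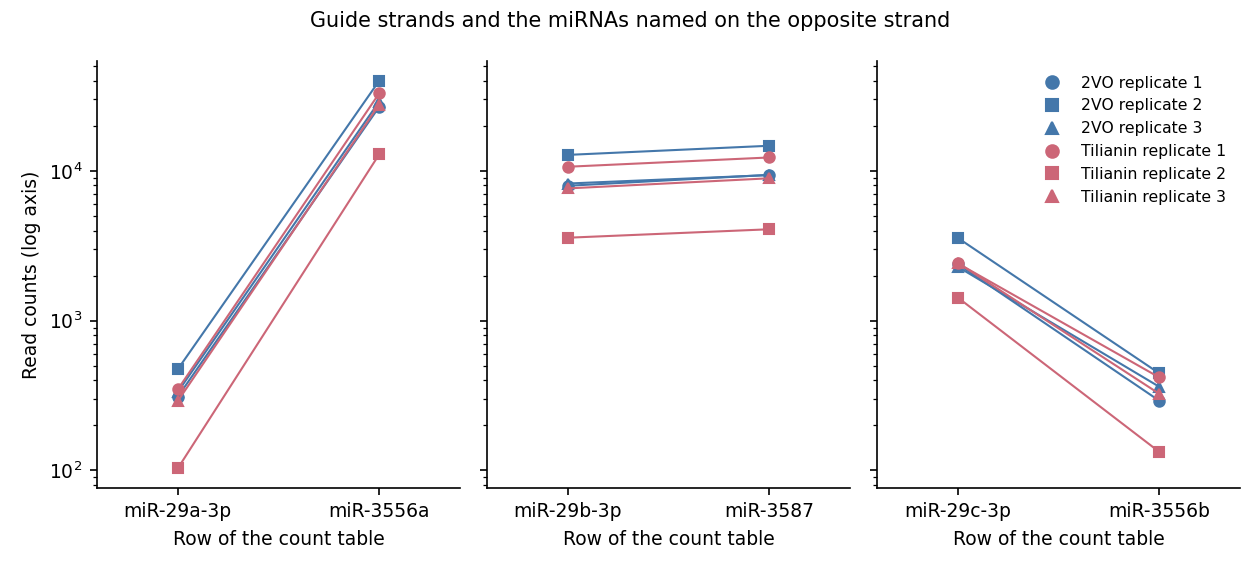
Read counts (log axis) in the rows of miR-29a-3p, miR-29b-3p and miR-29c-3p and in the rows of the miRNAs named on the opposite strand, with 1 line per library, 2VO in blue and tilianin-treated in red. The lines rise 84.4- to 125-fold to miR-3556a, are almost level to miR-3587 at 1.14 to 1.18 times, and fall to miR-3556b.

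In the rows as deposited, miR-29b-3p was the highest member, followed by miR-29c-3p, miR-29c-5p and miR-29a-3p, and this order held in all 6 libraries. Levels were expressed as CPM, read counts scaled to a common library size with TMM factors. Replicates 1, 2 and 3 given the vehicle stood at 867, 988 and 1066 CPM of rno-miR-29b-3p, and replicates 1, 2 and 3 given tilianin stood at 1158, 551 and 933 CPM. Treated replicate 2 was the lowest library and treated replicate 1 the highest, so that the 2VO libraries lay within the range of the treated ones. The mean was 973 ± 100 CPM with vehicle and 881 ± 307 CPM with tilianin (SD, n = 3 each).

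The vehicle replicates held 260, 275 and 296 CPM of rno-miR-29c-3p, and the tilianin replicates held 262, 220 and 297 CPM. Again treated replicate 2 was the lowest, and the other 5 libraries lay close together. The means were 277 ± 18.0 CPM and 260 ± 38.7 CPM (SD, n = 3 each).

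For rno-miR-29a-3p the vehicle replicates gave 33.8, 36.5 and 43.2 CPM, and the tilianin replicates gave 37.7, 15.9 and 35.4 CPM. Treated replicate 2 stood below all others, and the remaining treated libraries lay inside the range of the 2VO group. The means were 37.8 ± 4.85 CPM and 29.6 ± 12.0 CPM (SD, n = 3 each).

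Among the passenger arms, miR-29c-5p was well covered and miR-29a-5p was almost absent from the table. The level of rno-miR-29c-5p was 97.2, 110 and 101 CPM with vehicle and 108, 80.4 and 99.2 CPM with tilianin, from 522 to 1420 counts per library. Its means were 103 ± 6.31 CPM and 95.9 ± 14.1 CPM (SD, n = 3 each), and the groups overlapped. The row of rno-miR-29a-5p held 1 count, in 2VO replicate 3, and 0 counts in the other 5 libraries. A count of 0 allows up to 3 counts, which is 0.227 to 0.418 CPM by library totals, so no fold change was computed for it.

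**Figure D2:**
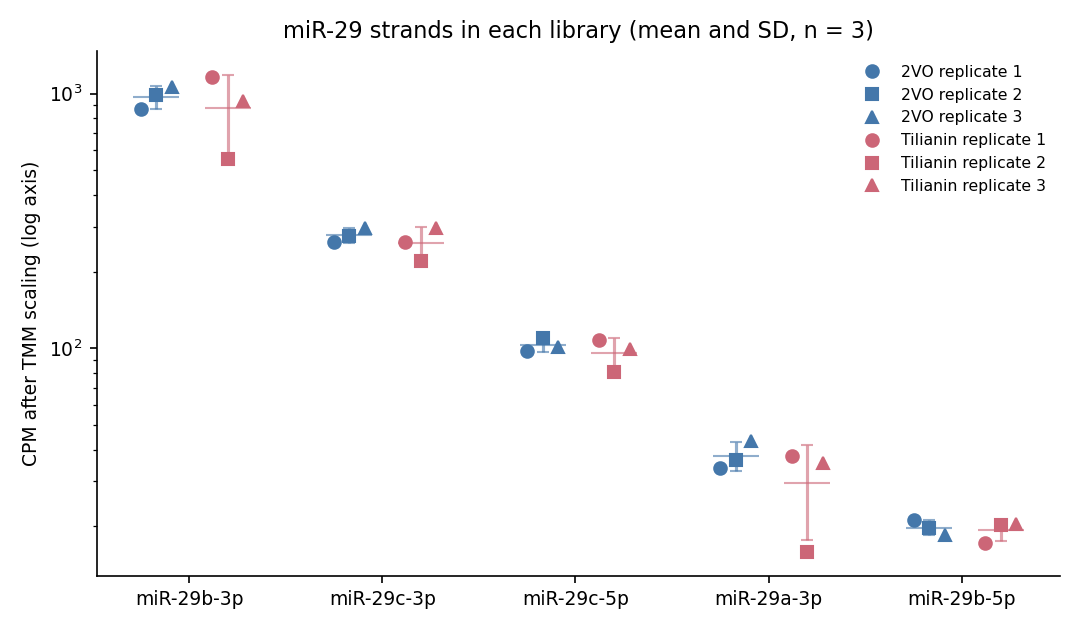
Level of 4 members and of miR-29b-5p in each library, as CPM after TMM scaling on a log axis, with the 2VO group in blue, the tilianin-treated group in red, and bars for the mean and SD (n = 3). The groups overlap for each strand, and treated replicate 2 (red square) is the lowest library for miR-29b-3p, miR-29c-3p, miR-29c-5p and miR-29a-3p, but not for miR-29b-5p.

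The 5p arms were also counted unequally between the gene pairs. The table has 2 further miR-29 rows, which are outside the chosen members, miR-29b-5p from the Mir29b2 hairpin and miR-29b-1-5p from Mir29b1. miR-29b-5p had 194, 254 and 143 counts in the 2VO libraries and 158, 131 and 167 counts in the treated libraries, whereas miR-29b-1-5p had 0 counts in all 6. Hence both passenger arms from chromosome 13 were detected in every library, with 1047 counts in all for miR-29b-5p and 5424 for miR-29c-5p, and those from chromosome 4 had 0 and 1 counts. miR-29c-5p made up 27.1 ± 1.50% of the counts of both miR-29c arms in the 2VO group and 27.0 ± 2.07% in the treated group (SD, n = 3 each). With miR-3556b added to the 3p arm these shares were 24.6 ± 1.69% and 24.6 ± 1.66%. For miR-29a the 5p arm made up 1 of 1858 counts over all libraries, or 0.0538% (95% exact binomial interval 0.00136 to 0.300%). That share is for the rows as deposited. miR-3556a held 169254 counts over all libraries, so with it added to the 3p arm the share would be far lower. The difference between the groups in the use of the miR-29c arms was thus far smaller than the spread between libraries.

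Adding the opposite-strand rows changed the order of the guide strands. As deposited, miR-29b-3p held 75.5 ± 0.726% of the counts of the 3 guide strands in the 2VO group and 74.4 ± 4.72% in the treated group (SD, n = 3 each). miR-29c-3p held 21.6 ± 0.743% and 23.1 ± 4.98%, and miR-29a-3p held 2.93 ± 0.134% and 2.47 ± 0.404%. With the opposite-strand rows added, miR-29a-3p became the leading guide strand, with 57.6 ± 1.50% in the 2VO group and 58.0 ± 1.49% in the treated group. miR-29b-3p then held 36.9 ± 1.38% and 36.1 ± 2.40%, and miR-29c-3p held 5.54 ± 0.177% and 5.88 ± 1.12%. In this form miR-29a-3p was 1.45 to 1.70 times as high as miR-29b-3p in each of the 6 libraries.

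The share of miR-29a-3p among the guide strands was the only one of these shares whose groups did not overlap, and this held only for the rows as deposited. It was 2.91, 2.81 and 3.08% in the 2VO libraries and 2.58, 2.02 and 2.80% in the treated libraries. The highest treated library thus lay just under the lowest 2VO library. Of all 454 tested miRNAs, 9.69% had CPM values that did not overlap between the groups, and 4.19% were lower in the treated group in this way. With the opposite-strand rows added the shares overlapped and the mean was higher in the treated group.

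**Figure D3:**
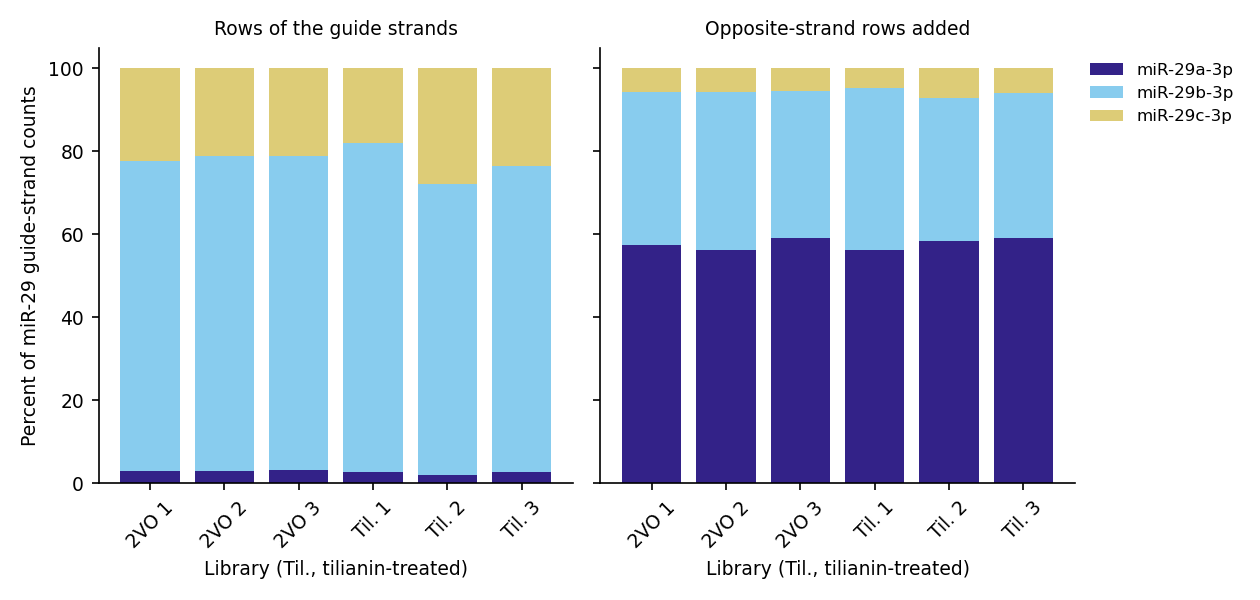
Percent of the counts of the 3 guide strands that each strand held in each library, for the rows as deposited (left) and with the opposite-strand rows added (right), as stacked bars from 0 to 100%. miR-29b-3p leads on the left with 70.1 to 79.4% and miR-29a-3p on the right with 56.2 to 59.2%.

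No miR-29 strand passed the test for a difference between the tilianin-treated 2VO group and the 2VO group. Of the 5 members, 4 had at least 10 counts in total and were tested, among 454 miRNAs in all, by edgeR's quasi-likelihood test. Of these 4 members, 0 had an unadjusted p-value below 0.05 in that test, against 7.27% of all tested miRNAs (1.54% when only lower values are counted), and 0 also passed the study's screen, which adds an absolute log2 fold change above 1, against 5.73%. The count was likewise 0 with limma-voom, with the exact test of edgeR and with the Wald test of DESeq2. Over all 454 tested miRNAs these tests called 17, 37 and 29 in that order. With 4 tested members, a count of 0 is near the share over all miRNAs in each test. After Benjamini-Hochberg adjustment 0% of all tested miRNAs had an adjusted p below 0.05 with edgeR's quasi-likelihood test.

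The largest difference among the members was that of miR-29a-3p, at -0.35 on the log2 scale (standard error 0.336, approximate 95% interval -1.14 to 0.44) and an adjusted p of 0.835 (edgeR). For miR-29b-3p the log2 fold change was -0.14 (standard error 0.293, interval -0.84 to 0.55, adjusted p = 0.896, edgeR). For miR-29c-3p the value was -0.10 (standard error 0.195, interval -0.55 to 0.36), and for miR-29c-5p it was -0.10 (standard error 0.189, interval -0.54 to 0.35), each with an adjusted p of 0.896 (edgeR). All 4 values were below 0, as were those of 53.3% of all tested miRNAs, and their median was -0.12, beside -0.03 over all tested miRNAs. These intervals leave room for changes of either sign, and a p-value above the threshold does not show that the groups were alike. A two-sided exact permutation test of each member's log2(CPM + 1) values, in which 0.1 is the lowest p that 3 against 3 libraries can reach, gave p-values of 0.5, 0.8, 0.7 and 0.6 for miR-29a-3p, miR-29b-3p, miR-29c-3p and miR-29c-5p.

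Outside the chosen members, miR-29b-5p had a fold change of -0.04 on the log2 scale (standard error 0.191, adjusted p = 0.952, edgeR). The opposite-strand rows gave much the same picture, but they may hold the same reads as the guide strands and are no separate evidence. The log2 fold change was -0.13 (standard error 0.267) for miR-3556a, -0.14 (standard error 0.295) for miR-3587 and -0.10 (standard error 0.327) for miR-3556b. With these rows added to the guide strands and the fit repeated over 451 miRNAs, a choice made after the data were seen, the values were -0.13 for miR-29a-3p (interval -0.76 to 0.50), -0.15 for miR-29b-3p (interval -0.84 to 0.54) and -0.10 for miR-29c-3p (interval -0.58 to 0.38), each with an adjusted p of 0.885 (edgeR). Of these, 0 had an unadjusted p-value below 0.05, against 7.54% of the 451 miRNAs. The log2 fold change of miR-29a-3p was thus nearer to 0 once miR-3556a was counted with it.

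The summed level of the 3 guide strands, which share the seed, was 1161, 1299 and 1405 CPM with vehicle and 1458, 787 and 1265 CPM with tilianin. This was 0.132 ± 0.0127% of all counts in the 2VO group and 0.116 ± 0.0387% in the treated group (SD, n = 3 each). With the opposite-strand rows added, the sum was 5171, 5546 and 6421 CPM with vehicle and 6406, 3407 and 5772 CPM with tilianin. These added sums are too high if reads were counted in both rows of a pair. On either count, treated replicate 2 was the lowest and the other 5 libraries overlapped between the groups. In libraries from whole tissue, fewer cells that express a miRNA and less of it per cell cannot be told apart.

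**Figure D4:**
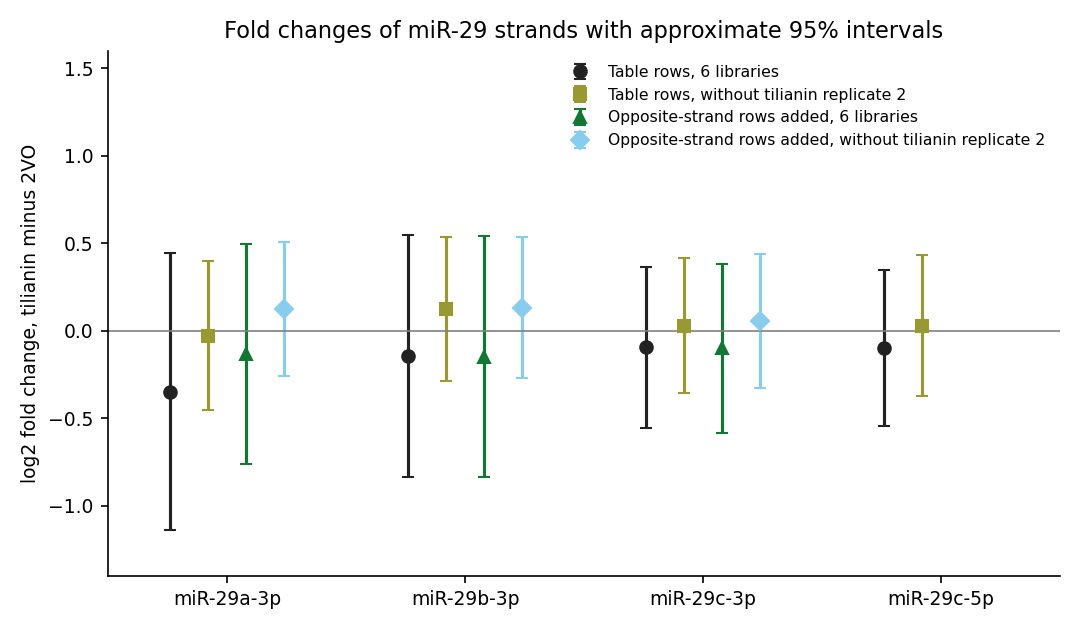
Log2 fold change of each tested member, tilianin-treated minus 2VO, with approximate 95% intervals from edgeR's quasi-likelihood test, for the rows as deposited and with the opposite-strand rows added, each with all 6 libraries and without tilianin-treated replicate 2. Every interval includes 0, and without treated replicate 2 the values move from below 0 to above it, except that of the deposited miR-29a-3p row, which moves from -0.35 to -0.03.

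The lower treated means rested mainly on 1 library. In tilianin-treated replicate 2, miR-29a-3p stood at 42.5% of its mean in the other 5 libraries, miR-29b-3p at 55.0%, miR-29c-3p at 79.0% and miR-29c-5p at 78.0%. miR-3556a, miR-3587 and miR-3556b stood at 59.3%, 54.1% and 51.7%, whereas miR-29b-5p stood at 104%. On the log2(CPM + 1) scale, 31 of the 454 tested miRNAs lay further below their level in the other libraries than miR-29a-3p did, and 61 lay further below than miR-29b-3p. Without this library the log2 fold changes were -0.03 for miR-29a-3p (standard error 0.190), 0.12 for miR-29b-3p (standard error 0.184), 0.03 for miR-29c-3p (standard error 0.173) and 0.03 for miR-29c-5p (standard error 0.180), with an adjusted p of 0.997 each (edgeR). With the opposite-strand rows added they were 0.12, 0.13 and 0.06 for miR-29a-3p, miR-29b-3p and miR-29c-3p. The direction of miR-29 in these data thus depended on tilianin-treated replicate 2.

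This library stood apart in other ways. Its Spearman correlations with the other libraries across the tested miRNAs were 0.936 to 0.957, against 0.983 to 0.992 among the other 5. The 9 listed miRNAs of neurons, such as miR-124-3p and miR-128-3p, were all detected and summed to 91312 CPM in it, against 138823 to 171967 CPM in the other libraries. The group ranges of this sum were 138823 to 171967 CPM for 2VO and 91312 to 168784 CPM for the treated group. The Hox-cluster list, of miRNAs that lie among the Hox genes, summed to 21658 CPM in it, against 89.8 to 149 CPM in the 2VO group and 321 to 489 CPM in the other treated libraries. Of the 4 miRNAs on that list, miR-10a-5p and miR-10b-5p made up nearly all of the sum and miR-196b-5p had 0 counts in every library. The part that these differences had in the level of miR-29 was not tested.

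**Figure D5:**
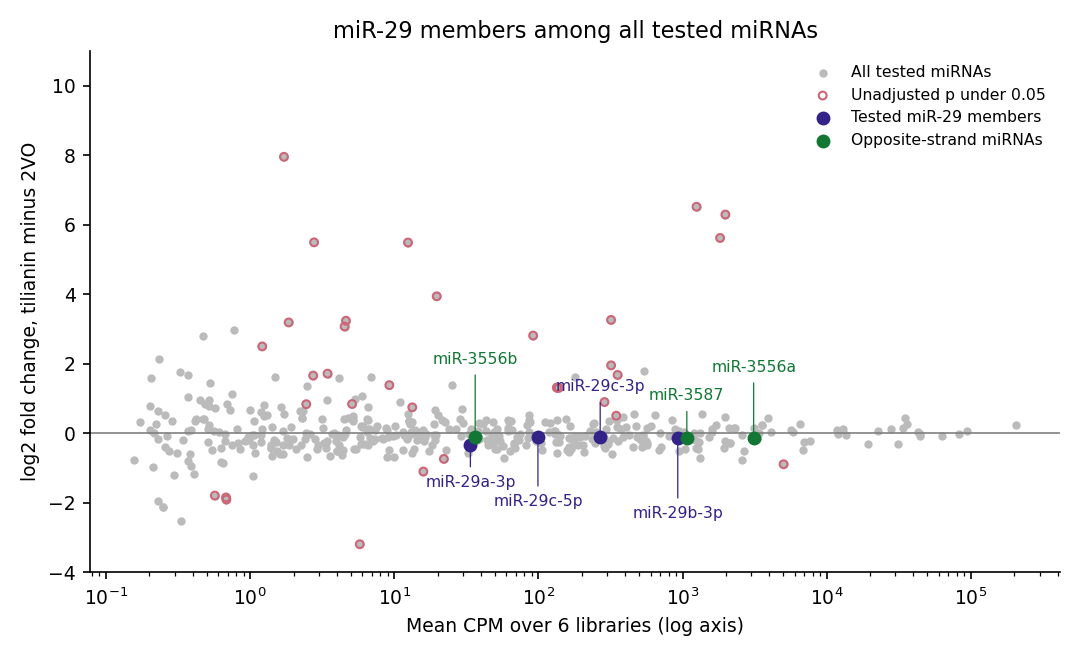
Log2 fold change, tilianin-treated minus 2VO, of every tested miRNA against its mean CPM over the 6 libraries (log axis), with open red circles for an unadjusted p-value below 0.05, the 4 tested miR-29 members in dark blue and the opposite-strand miRNAs in green. These members lie between -0.35 and -0.10, inside the main cloud, and none is circled.

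Of 16 listed miRNAs known to repress BACE1, 13 were tested and 0 had an unadjusted p-value below 0.05 (edgeR's quasi-likelihood test), against 7.27% of all tested miRNAs. With 13 members, this count is near that share. Their log2 fold changes ran from -0.30 to 0.56 with a median of -0.01, beside -0.03 over all tested miRNAs. The most abundant was miR-124-3p, the main neuronal miRNA, with 82656 ± 11760 CPM after vehicle and 82077 ± 23000 CPM after tilianin (SD, n = 3 each). Thus the median of the BACE1 list lay near the middle of the tested miRNAs. The lower quartile of all tested miRNAs was -0.28, and of the tested miR-29 members only miR-29a-3p, at -0.35, lay below it.

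Of 11 listed miRNAs with known roles in fibrosis and the extracellular matrix, 6 were tested, and 2 of these had an unadjusted p-value below 0.05, both higher in the treated group, against 5.73% of all tested miRNAs that were higher at this threshold. The median log2 fold change of the 6 was 0.69, beside -0.03 over all tested miRNAs. Their log2 fold changes ran from -0.05 to 1.78, and none lay near the median. The abundant miR-30c-5p, miR-192-5p and miR-26a-5p were at -0.05, 0.02 and 0.07. The rest, miR-133a-3p, miR-214-3p and miR-21-5p, were at 1.31, 1.66 and 1.78, and miR-21-5p had only 15 counts in total. miR-214-3p, a miRNA of mesenchymal cells, was at 1.32 ± 0.481 CPM with vehicle and 4.15 ± 0.964 CPM with tilianin (SD, n = 3 each), with an adjusted p of 0.591 (edgeR). miR-133a-3p, a muscle miRNA, was at 77.6 ± 24.4 CPM and 192 ± 145 CPM (SD, n = 3 each), with an adjusted p of 0.637 (edgeR). It had 123, 358 and 94.7 CPM in the treated libraries, with replicate 2 the highest. It too has a miRNA with a row of its own on the opposite strand, miR-133c, so its level is uncertain in the same way. The most abundant member of this list was miR-26a-5p, with 92696 ± 2902 CPM after vehicle and 97134 ± 26645 CPM after tilianin (SD, n = 3 each). The list was written with earlier results of these data known, so these calls are no independent evidence.

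The 5 miRNAs whose pattern over the 6 libraries was most like that of the summed guide strands were miR-3587, miR-433-3p, miR-22-3p, miR-674-5p and miR-543-3p. Of 334 miRNAs with at least 10 counts in every library, these had the highest Pearson correlation of log2(CPM + 1), between 0.981 and 0.997. The opposite-strand row miR-3587 was first with 0.997, and miR-3556a and miR-3556b ranked at 7 and 13 with 0.979 and 0.968. Of the 334, 40 had a correlation above 0.9, and 1 of the 6 points in each is tilianin-treated replicate 2, where the guide strands were lowest. Without that library the correlations of the first 5 were 0.97 for miR-3587, 0.91 for miR-433-3p, 0.91 for miR-22-3p, 0.91 for miR-674-5p and 0.86 for miR-543-3p, over 5 libraries.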

How the data were processed

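MiRNA counts of 6 small RNA libraries (TruSeq Small RNA kit, total RNA by TRIzol) were analysed, 3 from 2VO rats given vehicle and 3 from those given tilianin, grouped by the treatment label. The authors deposited raw read counts per mature miRNA, without normalization. The submitters' processing notes list FastQC 0.11.2, Trimmomatic 0.36, cutadapt 1.14 and DESeq2 1.12.4. The aligner, miRNA reference, build and strand setting are not given in the sources used here.

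A miRNA entered the fit when its counts over the 6 libraries came to 10 or more (454 miRNAs). Libraries were scaled by TMM, the model held only the group, and the quasi-likelihood F-test of edgeR 4.0.16 was used, with Benjamini-Hochberg adjustment over all 454. Alternatives used limma 3.58.1 and DESeq2 1.42.0 in R 4.3.3. Standard errors were derived by dividing each fold change by the square root of F, and 95% intervals from these, so both are approximate. Values are mean ± SD. Scores over several members were given no p. The code was tested on simulated data.

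The named miRNAs are the 5 members, other rows named miR-29 with a letter, the 5 most alike in pattern, and, of the BACE1 and fibrosis lists, the most abundant member and those with an unadjusted p-value below 0.05. The opposite-strand miRNAs were added after their values were seen. Members and lists were chosen with earlier results of these data known. Of the marker lists, neuronal and Hox-cluster sums are given in the results and the rest with the further observations.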

Additional observations from a re-analysis of the deposited data

How the results depend on the processing

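The count of miR-29 members with an unadjusted p-value below 0.05 was 0 under every alternative run: other scalings (DESeq2's size factors, library totals), tests (limma-voom, the exact test of edgeR, the Wald test of DESeq2), filters (none, or filterByExpr), robust dispersion, each library left out, and opposite-strand rows added. The replicate block also gave 0. With 4 tested members, a count of 0 is near the share over all miRNAs in each of these runs. For libraries with the same replicate number, the correlations of deviations were -0.12, 0.01 and 0.30. So few values cannot show whether libraries were paired. The block lowered the count over all miRNAs from 33 to 17. Other counts more than 1.5 times from 33 were 17 with limma-voom, and 9 to 53 with a library left out. The Wald and exact tests each gave 3 miRNAs at an adjusted p below 0.05, against 0, and the quasi-likelihood test gave 4 without tilianin-treated replicate 2, with or without opposite-strand rows added, and 1 without tilianin-treated replicate 1. Of 68 fold changes recomputed, 61 kept their direction and 7 turned positive, all without tilianin-treated replicate 2: miR-29b-3p 0.12, miR-29c-3p 0.029 and miR-29c-5p 0.029, and, with opposite-strand rows also added, miR-29a-3p 0.12, miR-29b-3p 0.13, miR-29c-3p 0.056 and miR-29c-5p 0.034. The cause was not tested. With opposite-strand rows added, the difference in the share of miR-29a-3p was 0.40 instead of -0.47 percentage points. As a log2 ratio to miR-29a-3p, the difference of miR-29b-3p was 0.24, whereas its share differed by -1.09 percentage points. Leaving out each library in turn, the lowest fold changes were -0.54 for miR-29a-3p, -0.37 for miR-29b-3p, -0.21 for miR-29c-3p and -0.17 for miR-29c-5p, and the highest were those without tilianin-treated replicate 2 (-0.03 for miR-29a-3p). In the same way the log2 difference of the summed guide strands ran from -0.34 to 0.10, and the share differences from -0.63 to -0.24 points for miR-29a-3p, from -3.61 to 1.08 for miR-29b-3p, from -0.84 to 4.13 for miR-29c-3p and from -1.13 to 0.94 for miR-29c-5p. The exact permutation p-values ran from 0.5 to 0.9 with other pseudocounts or scaling. For miR-29a-5p, depth allows no comparison.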

Other observations

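MiRNAs that mark other cell types or tissues were read beside miR-29, each list by its summed CPM per library. For comparison, an unadjusted p-value below 0.05 was reached by 7.27% of the 454 miRNAs in the fit, and by 5.73% with a higher level after tilianin, and the median log2 fold change over all 454 was -0.03. The choroid plexus list (4 of 4 tested, 3 higher in the treated group at an unadjusted p-value below 0.05 with edgeR, median log2 fold change 1.84) summed to 120 to 152 CPM in the 2VO group and 123 to 1078 CPM in the treated group. The erythroid list (2 of 3 tested, 1 higher, median 1.14) summed to 155 to 198 CPM and 338 to 881 CPM. The muscle list (3 of 4 tested, 1 higher, median 1.31) summed to 88.5 to 131 CPM and 121 to 492 CPM. In each of these lists tilianin-treated replicate 2 had the highest sum. The level of the muscle list is uncertain, because miR-1-3p and miR-133a-3p have opposite-strand miRNAs with rows of their own. Over all libraries, miR-1-3p had 1 count beside 675 for miR-3571, and miR-133a-3p had 6433 beside 6605 for miR-133c. The Hox-cluster list had 3 of 4 tested and 2 higher, with a median of 5.62.

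The leukocyte list (5 of 5 tested, 1 higher, median 0.54) summed to 774 to 1160 CPM in the 2VO group and 995 to 1395 CPM in the treated group. Tilianin-treated replicate 2 had the highest sum of this list too, and of the oligodendrocyte list below. The mural list (3 of 5 tested, 1 higher, median 0.55) summed to 2.16 to 4.14 CPM and 4.89 to 7.69 CPM. The endothelial list (2 of 2 tested, 0 called, median 0.06) summed to 5372 to 8553 CPM and 6509 to 7203 CPM, and the oligodendrocyte list (2 of 4 tested, 0 called, median 0.11) to 18.2 to 35.3 CPM and 17.5 to 50.5 CPM. The level of the oligodendrocyte list is uncertain, because miR-219a-2-3p, miR-338-3p and miR-338-5p have opposite-strand miRNAs with rows of their own. Over all libraries, miR-219a-2-3p had 18 counts beside 33793 for miR-219b, and miR-338-5p had 2 beside 45739 for miR-3065-3p. The neuronal list had 9 of 9 tested and 0 called, with a median of -0.30. Their part in the level of miR-29 was not tested.

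Rows of other miRNAs with an annotated partner on the opposite strand were filled in varied ways. Over all libraries, miR-338-3p had 1540 counts and miR-3065-5p had 206890, and miR-183-5p had 5 counts and miR-3553 had 56521. Other pairs were close to even, such as miR-218a-5p with 68348 and miR-218b with 70333 counts. In others the partner was nearly empty, such as let-7a-5p with 219183 and miR-3596a with 102 counts. Some rows had the same values as another row. The rows of let-7a-1-3p and let-7c-2-3p both had a mean of 260 CPM and a log2 fold change of -0.044. Those of miR-1843a-5p and miR-1843b-5p both had 1.39 CPM and -0.41. All these pairs were picked after their values were seen.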
